A study of Homo sapiens with 8 samples.

Results

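PEG10, VSTM2L, KIF5C, SLC37A2, RAPH1, TNNT1, IL7R, PACSIN3, PRSS23 and CDC42EP1 are 10 of the 18955 genes in a single-cell RNA-seq table of SUM159, an established line of human triple-negative breast cancer cells. They were chosen by their measured level: it lay apart in all 4 libraries of cells selected in JQ1 from the 4 libraries without JQ1, with 5 genes higher and 5 lower. The separation of the JQ1 libraries is therefore the rule that chose these genes, and it is described here without a test. Of the 10 genes, 10 passed the filter on low values (at least 5 CPM, which are UMIs of a gene scaled to the library total, in at least 2 libraries; a UMI marks 1 captured RNA molecule), as did 9288 genes in all. KIF5C passed it only through JQ1 libraries, and SLC37A2 only through JQ1-B and JQ1+Pal.

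JQ1 displaces BET bromodomain proteins from acetylated chromatin, where they help RNA polymerase II to leave the promoter, and genes differ widely in how much their transcription depends on BET proteins. Palbociclib inhibits the cyclin D-dependent kinases CDK4 and CDK6 that drive cells out of G1, and paclitaxel stabilises microtubules and disturbs mitosis. The 10 genes share no pathway: they encode an imprinted retrotransposon-derived protein, a secreted immunoglobulin-domain protein, a motor, a sugar-phosphate transporter, proteins of the actin and membrane cortex, a troponin, a cytokine receptor chain and a serine protease.

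The 8 libraries were parental cells before treatment (Pre), cells kept in DMSO vehicle (DMSO), 0.6 nM paclitaxel (Tax), 160 nM palbociclib (Pal), 100 nM JQ1 in each of 2 experiments (JQ1-A and JQ1-B), 100 nM JQ1 with 0.6 nM paclitaxel (JQ1+Tax) and 100 nM JQ1 with 160 nM palbociclib (JQ1+Pal). All cells carried the lentiviral ClonTracer barcode library, and all but the parental cultures went through up to 18 passages with their drug or vehicle. JQ1-A shared its experiment with DMSO, Tax and JQ1+Tax, and JQ1-B with Pal and JQ1+Pal, where no vehicle library was made. Each library was a pool of the cultures of 1 treatment (2 cultures remained for JQ1+Pal), so p-values measure the spread between libraries and not between cultures. The levels are relative within a library and carry no measure of cell size or DNA content.

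Library totals lay between 10621159 and 24240835 UMIs over 5738 cells, and median depth per cell between 20664 and 22503 UMIs. The median number of detected genes was 3536 to 3870.5 in the JQ1 libraries and 3935 to 4147.5 in the others, without overlap, and the median mitochondrial share of UMIs was 4.69% to 7.18% with JQ1, 5.58% in Pal and 3.72% to 3.96% in Pre, DMSO and Tax. The number of detected genes thus moved with JQ1, while the mitochondrial share of Pal lay within the range of the JQ1 libraries. The part of both measures in the levels below was not tested. ESR1, PGR and ERBB2 summed to 5.39 to 12.1 CPM, and the mesenchymal markers VIM, CDH2, FN1 and SPARC to 3736 to 4854 CPM. The breast epithelial markers in the table summed to 588 to 1041 CPM, nearly all of it KRT8 and KRT18. EPCAM was at 0.565 CPM or less and KRT19 at 0.165 or less, and CDH1 was not in the table. Of 6 markers of other cell types, 1 (PTPRC) was in the table, at 0.471 CPM or less. A total of 13 cell barcodes occurred in more than 1 library (26 cells), and without those cells the JQ1 libraries lay apart for 10 of the 10 genes and no CPM moved by more than 6.06%.

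Start-site sequences from RefSeq (GRCh38.p14, 250 bases before to 50 bases after a start) matched 6 of the 10 genes, with 8 starts. The 5 below are shown to set genes that were higher and lower with JQ1 side by side at their starts, 1 start for each gene but PRSS23, whose 2 starts are described in words. Capitals mark 3 motifs on either strand, and neighbouring GC boxes can share a base: the TATA box by the letters TATAAA, the CCAAT box by that name, and the GC box by the letters GGGCGG.
KIF5C, chr2:148874977-148875276, plus strand: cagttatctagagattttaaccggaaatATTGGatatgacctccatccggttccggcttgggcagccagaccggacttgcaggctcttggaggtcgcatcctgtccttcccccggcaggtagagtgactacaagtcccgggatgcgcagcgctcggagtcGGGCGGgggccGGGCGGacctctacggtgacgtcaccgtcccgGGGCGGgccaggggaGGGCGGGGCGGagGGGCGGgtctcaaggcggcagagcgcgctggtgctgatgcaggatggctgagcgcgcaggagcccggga
RAPH1, chr2:203535252-203535551, minus strand: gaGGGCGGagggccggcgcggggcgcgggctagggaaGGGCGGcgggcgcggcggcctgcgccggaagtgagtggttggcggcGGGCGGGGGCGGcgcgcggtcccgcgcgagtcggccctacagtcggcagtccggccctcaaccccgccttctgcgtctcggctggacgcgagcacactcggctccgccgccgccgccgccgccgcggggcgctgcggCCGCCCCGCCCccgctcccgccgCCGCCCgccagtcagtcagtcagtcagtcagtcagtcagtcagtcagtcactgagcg
TNNT1, chr19:55149157-55149456, minus strand: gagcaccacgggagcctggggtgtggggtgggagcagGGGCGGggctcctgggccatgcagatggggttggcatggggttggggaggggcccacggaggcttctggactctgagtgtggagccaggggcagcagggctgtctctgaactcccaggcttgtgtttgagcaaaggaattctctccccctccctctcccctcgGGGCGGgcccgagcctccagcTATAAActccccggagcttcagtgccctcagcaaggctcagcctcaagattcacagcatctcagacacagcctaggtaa
IL7R, chr5:35856641-35856940, plus strand: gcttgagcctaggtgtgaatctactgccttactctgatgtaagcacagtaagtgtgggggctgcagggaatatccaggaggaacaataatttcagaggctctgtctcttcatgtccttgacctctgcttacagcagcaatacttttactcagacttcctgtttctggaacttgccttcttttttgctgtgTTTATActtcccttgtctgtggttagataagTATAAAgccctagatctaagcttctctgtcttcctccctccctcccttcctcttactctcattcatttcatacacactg
CDC42EP1, chr22:37560230-37560529, plus strand: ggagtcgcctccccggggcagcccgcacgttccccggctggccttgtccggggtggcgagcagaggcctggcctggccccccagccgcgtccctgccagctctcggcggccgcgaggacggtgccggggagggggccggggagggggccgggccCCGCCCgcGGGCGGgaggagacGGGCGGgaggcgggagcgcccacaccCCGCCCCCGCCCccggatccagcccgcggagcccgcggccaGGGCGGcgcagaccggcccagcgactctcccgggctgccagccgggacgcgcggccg
TATAAA began 29 bases before the start of TNNT1, and 60 and 29 bases before that of IL7R, and 11.5% of the 35116 starts of the same length held it. GGGCGG occurred 6 times at this KIF5C start, 7 times at RAPH1, 6 times at CDC42EP1 and 2 times at TNNT1, and 45.0% of all starts held it at least once. CG dinucleotides, with a median of 14 over all starts, numbered 28 at KIF5C, 50 at RAPH1, 42 at CDC42EP1, 7 at TNNT1 and 0 at IL7R. Of the starts not printed, a second KIF5C start held 2 such dinucleotides and no GC box, and the 2 starts of PRSS23 held 2 dinucleotides without a GC box and 40 dinucleotides with 5 GC boxes. TGANTCA (AP-1) and CACGTG (E-box) were in none of the 8 starts, against 7.71% and 7.26% of all starts. These matches are letters in a window and were not tied to binding.

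Levels were compared within each gene across the 8 libraries, as CPM of the library total. The JQ1 libraries lay apart from the others for 10 of the 10 genes, the criterion of the choice, and did so for 28.2% of the 9288 genes tested (5.45% higher and 22.7% lower). On CPM the median tested gene was lower with JQ1 by 0.18 on the log2 scale. With TMM-scaled library sizes, which removed that shift, the background was 24.5% (11.7% higher and 12.8% lower) and 10 of the 10 genes still lay apart. The level in a library mixes the amount of RNA per cell with the kinds of cells that survived selection, and the pooled values cannot tell these apart.

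PEG10 (chr7:94285637-94299007 in GRCh37, plus strand) is a paternally expressed imprinted gene derived from a retrotransposon. Its level was 47.5 CPM in Pre, 55.9 in DMSO, 32.9 in Tax and 24.9 in Pal, against 171 in JQ1-A, 185 in JQ1+Tax, 227 in JQ1-B and 122 in JQ1+Pal. The JQ1 libraries averaged 176 ± 43.1 CPM (SD, n = 4), and the others 40.3 ± 14.0 (n = 4). Among libraries without JQ1, PEG10 was lowest in Pal, and among those with JQ1 it was lowest in JQ1+Pal, so that the library nearest to the JQ1 libraries was DMSO.

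VSTM2L (chr20:36531513-36573752, plus strand) encodes a secreted immunoglobulin-domain protein that antagonises the peptide humanin. It stood at 22.8 CPM in Pre, 26.6 in DMSO and 19.97 in Tax, at 60.4 in Pal, and at 159 in JQ1-A, 131 in JQ1+Tax, 149 in JQ1-B and 196 in JQ1+Pal. Pal thus had the highest level outside the JQ1 libraries, 2.27 times that of DMSO, a library of the other experiment. The 95% interval was 1.99 to 2.60 by exact binomial on UMIs, and such intervals cover counting error only. Libraries averaged 159 ± 27.4 CPM under JQ1 (SD, n = 4), and 32.4 ± 18.8 otherwise (n = 4).

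KIF5C (chr2:149632819-149883273, plus strand), a kinesin-1 heavy chain best known from neurons, was at 1.06 CPM in Pre, 1.69 in DMSO, 2.09 in Tax and 2.296 in Pal. It was at 12.98 CPM in JQ1-A, 9.34 in JQ1+Tax, 7.19 in JQ1-B and 21.0 in JQ1+Pal. JQ1-B, the lower of the 2 libraries in JQ1 alone, had 0.554 times the level of JQ1-A (0.446 to 0.688), so the pair of JQ1 selections differed for this gene by more than counting error.

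SLC37A2 (chr11:124933198-124960412, plus strand) exchanges sugar phosphates for phosphate across the endoplasmic reticulum membrane. Few UMIs lay behind its values outside JQ1: 8 in Pre, 4 in DMSO, 15 in Tax and 18 in Pal, or 0.567, 0.377, 0.825 and 1.09 CPM. The JQ1 libraries had 3.28 CPM in JQ1-A, 1.88 in JQ1+Tax, 5.02 in JQ1-B and 11.2 in JQ1+Pal. They were all above the other 4 libraries but spread widely among themselves, and JQ1+Pal exceeded JQ1-B by 2.23 times (1.77 to 2.83).

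RAPH1 (chr2:204259068-204400058, minus strand) encodes lamellipodin, which brings Ena/VASP proteins to the leading edge. Its levels were 12.4 CPM in Pre, 12.9 in DMSO, 10.8 in Tax and 18.3 in Pal, and 26.1 in JQ1-A, 19.4 in JQ1+Tax, 28.2 in JQ1-B and 41.3 in JQ1+Pal. RAPH1 was the member nearest to the limit of the rule: its lowest JQ1 library had 1.06 times the level of Pal. When every cell was thinned to 10000 UMIs, JQ1+Tax no longer lay above Pal. Around that limit, HPS6 was the tested gene just inside with a ratio of 1.0001, and AKR1B1 just outside with 0.99995.

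The other 5 genes were lower with JQ1. TNNT1 (chr19:55644066-55660574, minus strand), the slow skeletal muscle troponin T, had 57.2 CPM in Pre, 67.5 in DMSO, 29.4 in Tax and 36.6 in Pal. In JQ1-A it had 8.16 CPM, in JQ1+Tax 3.49, in JQ1-B 7.88 and in JQ1+Pal 3.67. The 2 libraries in JQ1 alone stood close together, at a ratio of 0.966 (0.762 to 1.23), and each combination lay at less than their level, with 0.427 times JQ1-A for JQ1+Tax (0.302 to 0.596) and 0.466 times JQ1-B for JQ1+Pal (0.355 to 0.607).

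IL7R (chr5:35852797-35879705, plus strand) encodes the alpha chain of the interleukin-7 receptor, also used by the TSLP receptor. Pre had 24.0 CPM, DMSO 13.9, Tax 16.3 and Pal 12.6, while JQ1-A had 1.30, JQ1+Tax 0.906, JQ1-B 1.38 and JQ1+Pal 0.578. The gap was the widest of the members: the lowest unexposed library had 9.11 times the highest JQ1 level, rank 3 among the 9288 genes. IL7R was also lower in DMSO than in Pre, by 1.73 times (1.42 to 2.11), with no JQ1 in either.

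PACSIN3 (chr11:47199073-47207994, minus strand), an F-BAR protein that bends membranes at endocytic sites, had 18.2 CPM in Pre, 18.3 in DMSO, 17.2 in Tax and 11.2 in Pal. It had 5.13 CPM in JQ1-A, 3.83 in JQ1+Tax, 5.12 in JQ1-B and 3.09 in JQ1+Pal. Pal was the lowest of the unexposed libraries, with 0.612 times the level of DMSO (0.498 to 0.752), and JQ1-A and JQ1-B were at a ratio of 0.999 (0.741 to 1.35).

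PRSS23 (chr11:86502101-86663952, plus strand), a secreted trypsin-like serine protease, had 34.2 CPM in Pre, 24.3 in DMSO, 42.7 in Tax and 20.6 in Pal. It had 3.03 CPM in JQ1-A, 7.95 in JQ1+Tax, 5.02 in JQ1-B and 2.68 in JQ1+Pal. Both paclitaxel libraries were the highest of their kind: Tax had 1.76 times the level of DMSO (1.53 to 2.03), and JQ1+Tax 2.63 times that of JQ1-A (1.86 to 3.75).

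CDC42EP1 (chr22:37956487-37965412, plus strand), an effector of the GTPase CDC42 that binds septins, had 25.1 CPM in Pre, 18.2 in DMSO, 32.7 in Tax and 12.9 in Pal. It had 1.85 CPM in JQ1-A, 1.88 in JQ1+Tax, 3.10 in JQ1-B and 0.743 in JQ1+Pal. In Tax it was 1.80 times as high as in DMSO (1.53 to 2.13), whereas JQ1+Tax and JQ1-A were at a ratio of 1.02 (0.581 to 1.77).

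**Figure D1:**
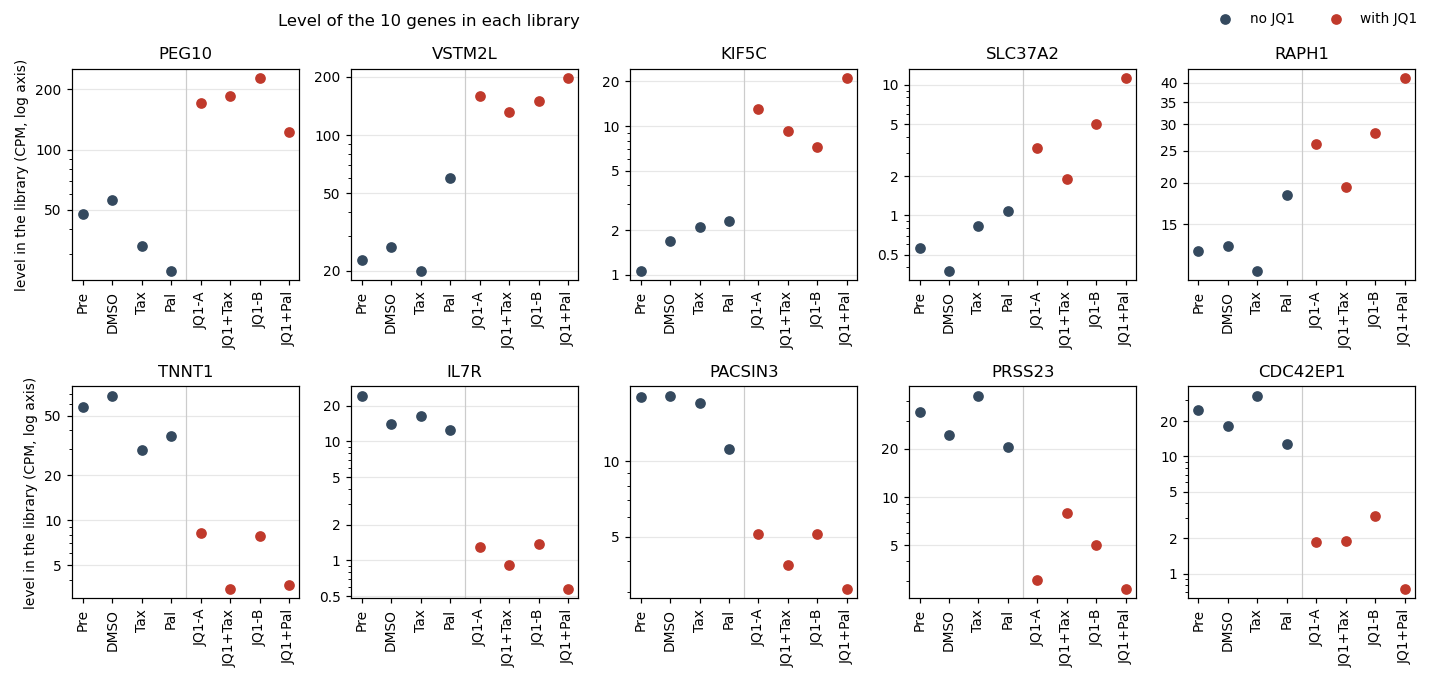
Level of each of the 10 genes (CPM, log axis) in the 4 libraries without JQ1 (dark) and the 4 with JQ1 (red), 1 point a library. The upper row is higher and the lower row lower in every JQ1 library, with RAPH1 closest to overlap at 19.4 CPM in JQ1+Tax and 18.3 in Pal.

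The members were not the 10 widest gaps in the data. Expressed as the ratio between the nearest libraries of the 2 kinds, the gaps ranged from 1.06 in RAPH1 (rank 1835 of 9288) to 9.11 in IL7R. CDC42EP1 had 4.15 (rank 16), TNNT1 3.61 (rank 20), KIF5C 3.13 (rank 36) and PRSS23 2.59 (rank 54), and the other 4 had 1.73 to 2.19 (ranks 74 to 142).

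The libraries at the edges of the gap were often the same ones, though the full order differed from gene to gene. Pal was the unexposed library nearest to the JQ1 libraries for 8 of the 10 genes, and for the same 8 genes JQ1+Pal was the JQ1 library farthest from the unexposed ones. The exceptions were PEG10 and TNNT1. Among all 2615 tested genes whose JQ1 libraries lay apart, Pal was nearest for 68.0%, JQ1+Pal was farthest for 41.9% and both held for 31.1%.

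Whether palbociclib and paclitaxel moved these genes is a contrast other than JQ1 against no JQ1. It rests on values of the same 8 libraries that the choice used, so its tests are not independent of the choice. The drugs were tested with edgeR's quasi-likelihood test on UMIs summed per library. JQ1, palbociclib and paclitaxel exposure were additive terms over the 8 libraries, with Benjamini-Hochberg adjustment over the 9288 genes. For palbociclib, 2 libraries against 6, 0 of the 10 genes had an adjusted p under 0.05, where 0.28% of all tested genes were called (26 genes). At an unadjusted p under 0.05 there were 9 of the 10, against 22.1% of all genes, and the DESeq2 Wald test called 5 of the 10, against 5.54%. KIF5C and SLC37A2, which passed the filter on low values only through JQ1 libraries, were among the 9.

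The palbociclib and JQ1 terms rest on the same libraries, so their log2 fold changes are set side by side, without a test of likeness. SLC37A2 stood at 1.31 ± 0.38 for palbociclib (SE; adjusted p = 0.111) beside 2.88 for JQ1, KIF5C at 0.96 ± 0.30 (0.124) beside 2.97, VSTM2L at 0.91 ± 0.24 (0.0986) beside 2.62 and RAPH1 at 0.61 ± 0.12 (0.0716) beside 1.25. CDC42EP1 stood at -1.01 ± 0.32 (adjusted p = 0.128) beside -3.36, TNNT1 at -0.86 ± 0.16 (0.0712) beside -2.88, IL7R at -0.69 ± 0.28 (0.201) beside -3.84, PACSIN3 at -0.66 ± 0.15 (0.0805) beside -1.72 and PRSS23 at -0.48 ± 0.24 (0.282) beside -2.56. PEG10 had estimates of opposite sign, -0.83 ± 0.17 (adjusted p = 0.0742) for palbociclib and 2.37 for JQ1. Leaving out Tax or JQ1+Tax raised the number of the 10 genes called to 5 in each case, where 482 and 497 of all genes were called, and leaving out JQ1+Pal to 3, where 938 were. The last of these fits has Pal as its only palbociclib library, which is assumed to vary like the others. Both palbociclib libraries came from 1 experiment, whose remaining library was JQ1-B. With the experiment as a term 0 of the 10 were called, as were 0 of all 9288 genes. The term set the palbociclib experiment against all other libraries, so Pre, which belonged to neither experiment, was counted with the paclitaxel experiment. In that edgeR fit 638 of all genes had an unadjusted p under 0.05.

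For paclitaxel, 0 of the 10 genes were called by edgeR, as were 0 of all genes (0%). At an unadjusted p under 0.05 there were 3 of the 10, TNNT1, PRSS23 and RAPH1, against 4.25% of all genes, and DESeq2 called 1 of the 10, against 0.0969%. TNNT1 had the farthest estimate, a log2 fold change of -1.11 ± 0.17 (edgeR adjusted p = 0.383; DESeq2 adjusted p = 0.000268). PRSS23 had 0.77 ± 0.23 (adjusted p = 0.885) and RAPH1 -0.33 ± 0.12 (0.885), and the other 7 lay between -0.40 and 0.26.

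**Figure D2:**
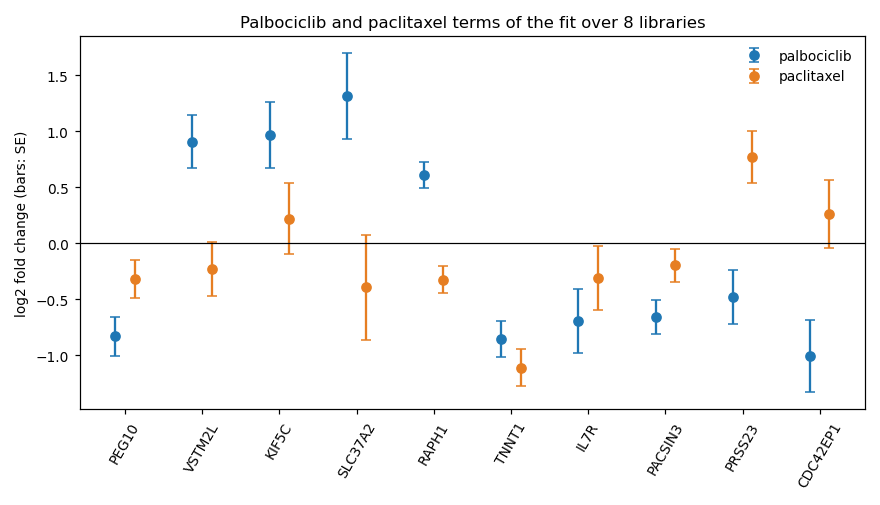
Log2 fold change of each gene for palbociclib (blue) and paclitaxel (orange) in the edgeR fit over 8 libraries, points with standard errors. The palbociclib points run from -1.01 in CDC42EP1 to 1.31 in SLC37A2, with PEG10 at -0.83 among genes that were higher with JQ1.

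Whether JQ1 and the second drug combined other than additively was tested with interaction terms, chosen after seeing the data, which left 2 residual degrees of freedom. No interaction of the 10 genes passed an edgeR adjusted p under 0.05 (0 of 20 tests), where 0.0108% of all genes did for palbociclib and 0.388% for paclitaxel. At an unadjusted p under 0.05 there were 2 of 10 for each drug, against 17% of all genes for each. These tests use values of the same libraries by which the genes were chosen, so they are not independent of the choice. The counts therefore cannot be read against those of all genes, and KIF5C and SLC37A2 passed the filter only through JQ1 libraries. The smallest adjusted p was that of VSTM2L with palbociclib, at -1.13 ± 0.20 on the log2 scale (unadjusted p = 0.000292, adjusted p = 0.109). VSTM2L was 2.27 times as high in Pal as in DMSO but 1.32 times as high in JQ1+Pal as in JQ1-B (1.26 to 1.38). Pal and DMSO came from different experiments, whereas JQ1+Pal and JQ1-B shared 1, and the interaction fit had no experiment term. Drug and experiment therefore cannot be told apart in this contrast. Next for paclitaxel, SLC37A2 stood at -1.86 ± 0.75 (adjusted p = 0.261), with 15 UMIs in Tax and 27 in JQ1+Tax.

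To see whether whole populations or subsets of cells differed, cells were compared at a fixed depth of 10000 UMIs drawn from each, using the 5528 cells of at least that depth and leaving out 210. Shares of cells with a UMI are given with 95% exact binomial intervals. Since all cells were of 1 line, no cell type that should lack these genes was present to measure free RNA, whose part in the low shares was not tested.

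PEG10 was seen in 34.1% of cells in Pre, 43.0% in DMSO, 26.4% in Tax and 19.1% in Pal, against 69.5% in JQ1-A, 75.0% in JQ1+Tax, 76.4% in JQ1-B and 61.8% in JQ1+Pal. VSTM2L went from 17.9% in Pre, 20.5% in DMSO, 14.5% in Tax and 40.5% in Pal to 69.8% in JQ1-A, 65.5% in JQ1+Tax, 66.8% in JQ1-B and 80.0% in JQ1+Pal. With all UMIs of each cell, PEG10 was seen in 64.7% of DMSO and 83.6% of JQ1-A cells, and VSTM2L in 36.2% and 83.2%. At 10000 UMIs both genes were thus detected in a majority of cells of every JQ1 library and in a minority of cells of every other library.

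For the remaining risers a UMI was rare in single cells. KIF5C had a UMI in 0.511% to 2.71% of cells without JQ1 and in 7.57% to 18.9% with it. SLC37A2 had one in 0.223% to 1.02% and in 1.47% to 9.44% of cells. RAPH1 shares overlapped, with 17.0% in Pal (14.2% to 20.1%) and 15.5% in JQ1+Tax (12.8% to 18.7%).

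The 5 genes lower with JQ1 kept a small share of cells with a UMI. TNNT1 was seen in 25.4% to 47.7% of cells without JQ1 and in 3.59% to 6.68% with it, and PRSS23 in 14.7% to 31.4% and 1.85% to 6.87%. IL7R was seen in 9.58% to 17.5% and 0.615% to 1.97% of cells, PACSIN3 in 9.92% to 19.2% and 2.36% to 5.16%, and CDC42EP1 in 11.4% to 28.5% and 0.718% to 3.19%. CDC42EP1 in JQ1+Pal had a UMI in 7 of 975 cells.

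A share of cells follows from the mean when UMIs fall on cells at random. Set against that Poisson share, the observed share was 0.938 to 1.01 times as large for RAPH1, 0.960 to 1.04 for KIF5C and 0.915 to 1.01 for CDC42EP1 over the 8 libraries, where the median over all tested genes with at least 0.01 UMI per cell was 0.978 to 0.984. It was 0.774 to 0.922 times as large for VSTM2L, lowest in DMSO, and 0.849 to 0.937 for PEG10. For PEG10 the lowest value was that of JQ1-B, where the 5th percentile over all those genes was 0.912. PRSS23 had 0.797 in Pal, the lowest of its 8 values. TNNT1 was lowest in Pre (0.861), JQ1-A (0.864) and Pal (0.878). PEG10, VSTM2L, PRSS23 and TNNT1 thus had fewer cells with a UMI in the libraries named for each than their means give. The means of KIF5C, CDC42EP1 and RAPH1 were at most 0.216, 0.332 and 0.450 UMI per cell. Lower means make the ratio less sensitive to uneven spread, so it says less about libraries with few UMIs. It can still fall there, as the mean of PRSS23 in Pal was 0.205.

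**Figure D3:**
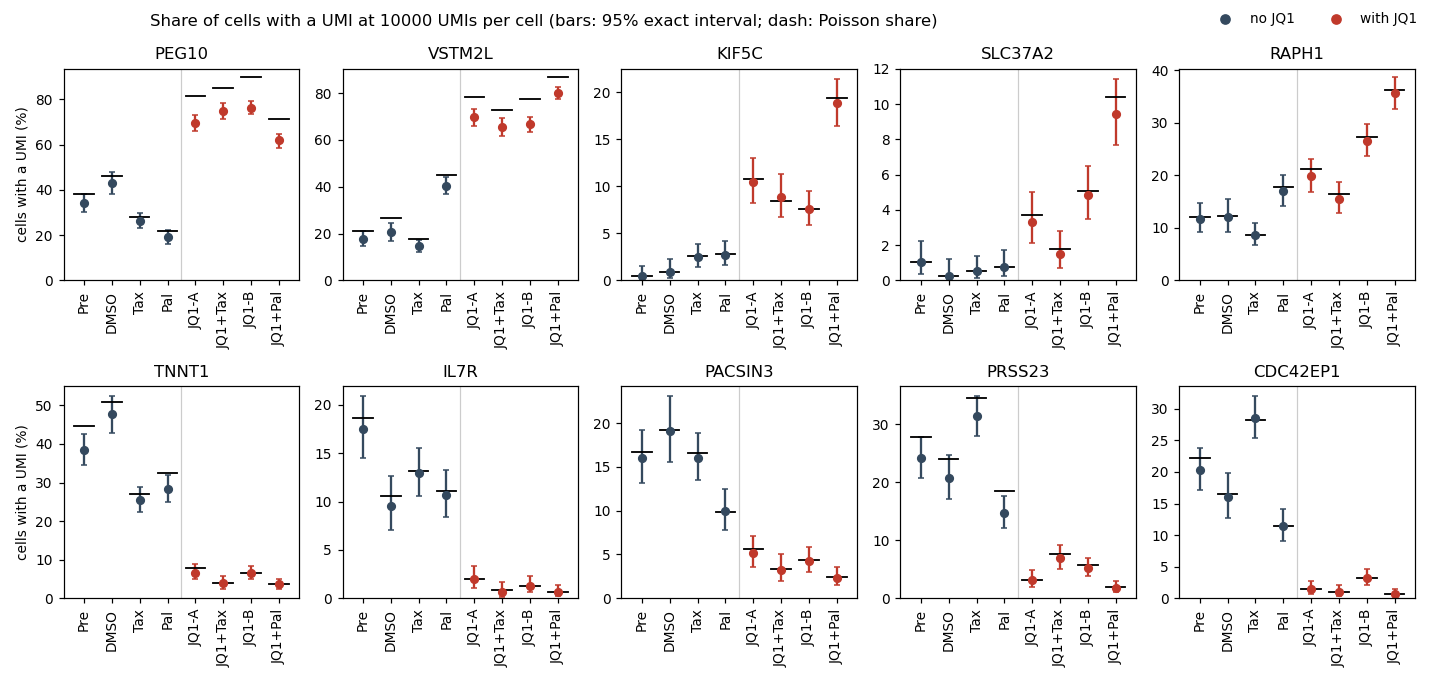
Share of cells with a UMI of each gene at 10000 UMIs per cell, with 95% exact intervals, in libraries without JQ1 (dark) and with JQ1 (red); black dashes show the Poisson share given by the mean. PEG10 and VSTM2L points lie under their dashes in all JQ1 libraries, for example 69.5% against 81.4% for PEG10 in JQ1-A, and KIF5C and RAPH1 points lie near theirs.

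Spread between cells was measured as the variance in excess of counting noise, divided by the squared mean, for genes with at least 0.5 UMI per cell. VSTM2L had 0.394 in JQ1-A, 0.374 in JQ1+Tax, 0.436 in JQ1-B and 0.200 in JQ1+Pal, and PEG10 had 1.59, 0.501, 0.749 and 0.823 in the same order. The median of all such genes was 0.148 to 0.164 in these libraries. PEG10 thus varied more from cell to cell than the median gene in each of the 4, and its highest cells had 33 UMIs in JQ1-A, 13 in JQ1+Tax, 26 in JQ1-B and 18 in JQ1+Pal, against 3 to 9 in the other libraries. The 10% of cells with most UMIs held 38.5% of PEG10 UMIs in JQ1-A and 40.9% in DMSO.

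Pairs of single cells still overlapped. A cell of JQ1-A had more PEG10 UMIs than a cell of DMSO in 54.2% of pairs, equally many in 27.9% and fewer in 17.9%. For VSTM2L the shares were 62.4%, 29.2% and 8.45%, and for TNNT1 a JQ1-A cell had more UMIs in 3.90% of pairs and fewer in 45.4%. Cells of the paired libraries thus shared values of 0 or 1 UMI for single genes.

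The 5 genes of each direction were then summed within each cell. The 5 risers summed to a median of 0 to 1 UMI per cell without JQ1 and of 3 to 4 with it. PEG10 and VSTM2L made up most of this sum, with means of 1.68 and 1.53 of 3.60 UMIs in JQ1-A and 1.26 and 2.02 of 4.05 in JQ1+Pal. The 10th percentile of the sum over cells was 1 UMI in each JQ1 library and 0 in each other library. Cells without any UMI of the 5 risers made up 47.2% of Pre, 40.1% of DMSO, 55.0% of Tax and 38.8% of Pal, and 5.31% of JQ1-A, 8.51% of JQ1+Tax, 4.26% of JQ1-B and 4% of JQ1+Pal.

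The 5 fallers summed to at least 3 UMIs in 132 of 587 cells in Pre, 88 of 449 in DMSO, 128 of 736 in Tax and 57 of 665 in Pal. In JQ1 libraries such cells numbered 4 of 659 in JQ1-A, 4 of 611 in JQ1+Tax, 5 of 846 in JQ1-B and 0 of 975 in JQ1+Pal, where a limit of 3 cells over the total allows a share of up to 0.308%. Cells with more riser than faller UMIs were 17.7% to 40.0% of cells without JQ1, highest in Pal, and 88.7% to 95.2% with JQ1. Within libraries, correlations between 2 members across cells lay between -0.14 and 0.17 over 360 values (median -0.0024), most of them between genes with few UMIs. PEG10 and VSTM2L, the members with most UMIs per cell, had -0.10 in JQ1-A (659 cells) and -0.14 in JQ1-B (846 cells), and -0.04 to 0.02 in the other 6 libraries. Cells of a library share its preparation, and these values are a description.

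**Figure D4:**
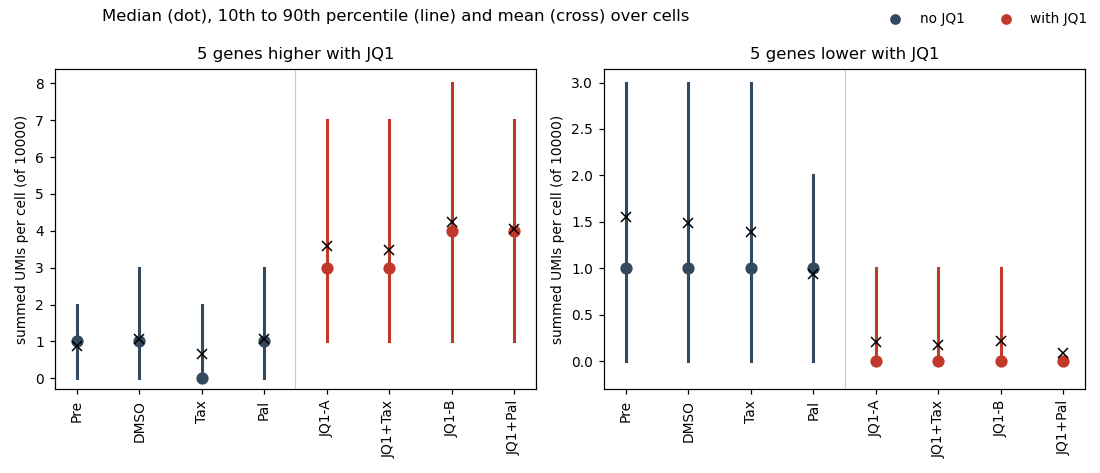
Summed UMIs per cell, of 10000, for the 5 genes higher and the 5 genes lower with JQ1, by library: dots are medians, lines the 10th to 90th percentile and crosses means over cells. The risers' medians are 0 or 1 without JQ1 and 3 or 4 with it, and the fallers' medians are 1 without and 0 with JQ1.

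Cell-cycle phase differed between libraries. G1 calls made up 26.7% of cells in Pre, 23.6% in DMSO, 4.48% in Tax and 64.4% in Pal, and 44.9% to 54.5% in the JQ1 libraries. Within G1 cells alone, the JQ1 libraries lay apart for 9 of the 10 genes, within S for 9 and within G2/M for 9. The members were chosen for lying apart over cells of these libraries, so the counts largely restate the choice. The share of all tested genes that lay apart within a phase was not computed. SLC37A2 overlapped in G1, where the value of Tax (3.03 CPM) was 1 UMI in 33 cells, and RAPH1 overlapped in S and in G2/M.

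The difference was then read within each phase. The log2 ratio of mean CPM with and without JQ1 was 2.08 over all cells for PEG10 and 2.27, 1.87 and 2.14 within G1, S and G2/M. For IL7R it was -3.61, and -3.82, -3.38 and -3.55 within the phases. VSTM2L had the lowest ratio in G1, at 1.86 against 2.24 over all cells, and its level in G1 cells without JQ1 was higher (31.2 CPM in Pre, 50.9 in DMSO, 39.4 in Tax and 64.7 in Pal) than in G2/M cells of the same libraries (17.4 to 50 CPM).

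Subsets within libraries were then looked at through clusters. UMIs of each cell were divided at random into 2 parts. Clusters were found from one part without the 10 genes, and levels were read from the other, in 14 clusters of JQ1 libraries and 10 of the other libraries. For PEG10, VSTM2L, TNNT1, IL7R, PACSIN3, PRSS23 and CDC42EP1, all 14 JQ1 clusters lay beyond all 10 others. This was so for 13 of 14 clusters for KIF5C, 9 of 14 for RAPH1 and 8 of 14 for SLC37A2. The clusters were parts of the same libraries by which the members were chosen, so these counts largely restate the choice. The share of all tested genes whose clusters lay apart was not computed.

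Clusters of a library still differed from each other. PEG10 ranged from 120 to 275 CPM over the 3 clusters of JQ1-A and from 94.2 to 192 over the 5 of JQ1+Pal, against 25.8 to 61.6 in the clusters without JQ1. VSTM2L ranged from 8.80 to 42.7 CPM over the 4 clusters of Pre and from 12.4 to 53.1 over the 2 of Tax, and the lowest JQ1 cluster had 87.1. IL7R reached 70.4 CPM in a cluster of 24 Pre cells, where the other 3 Pre clusters had at least 23.2, and no JQ1 cluster had more than 3.24. SLC37A2 was at 0 in a JQ1-A cluster of 61 cells and at 5.77 to 15.5 in the 5 clusters of JQ1+Pal.

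**Figure D5:**
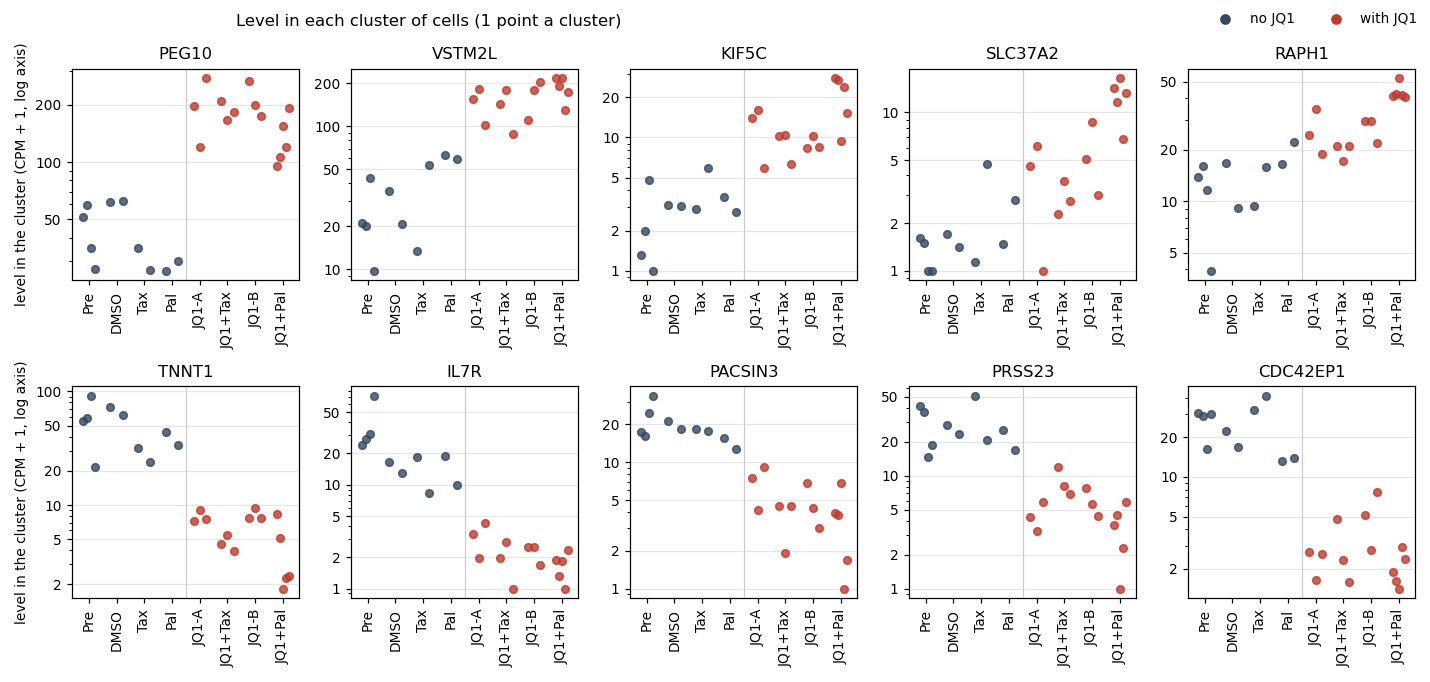
Level of each gene (CPM + 1, log axis) in each cluster, 1 point a cluster, in libraries without JQ1 (dark, 10 clusters) and with JQ1 (red, 14 clusters); clusters were found without these genes on a separate part of the UMIs. Red and dark points do not overlap for 7 genes, and overlap for KIF5C, RAPH1 and SLC37A2.

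Genes of the same families and pathways, listed with earlier results of these data known, were tested for the JQ1 term, for which they were not chosen. Of 75 that were tested out of 123 listed, 27 were called by edgeR (36%, 19 higher and 8 lower), against 37.6% of all tested genes, and their median log2 fold change was 0.08 against 0.00 over all tested genes. Relatives of the members were thus called about as often as any gene. Leaving out Pre, JQ1-A or JQ1-B, 15, 16 and 14 were called, where the count over all genes also fell, from 3488 to 1970, 1760 and 2032.

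The closest relatives of the risers, which the choice of members did not use, are given first. PEG10's neighbour SGCE, whose annotated start lies 247 bases away on the other strand, had a log2 fold change of -0.18 ± 0.17 (edgeR adjusted p = 0.424), with 14.98 to 29.9 CPM without JQ1 and 13.98 to 18.3 with it. The kinesin heavy chain KIF5B had -0.13 ± 0.13 (adjusted p = 0.470) while KIF5A was below the filter at up to 1.09 CPM. SLC37A3 had -0.10 ± 0.16 (0.639) and SLC37A4 -0.26 ± 0.16 (0.227), and SLC37A1 was below the filter.

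Among relatives of the fallers, PACSIN2 had 0.17 ± 0.10 (edgeR adjusted p = 0.184), and PACSIN1 was not in the table. CDC42EP4 fell, with -0.34 ± 0.10 (adjusted p = 0.0279), while CDC42EP2 had 0.37 ± 0.13 (0.0579) and CDC42EP3 0.24 ± 0.09 (0.0729), and CDC42EP5 was below the filter. TNNT2 and the RAPH1 relative APBB1IP were not in the table, and TNNT3 was at up to 0.188 CPM.

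By pathway, the PACSIN, dynamin and EHD list had 3 higher and 2 lower of 9 tested, the CDC42 effector and septin list 4 higher and 1 lower of 15, and the leading-edge list of RAPH1 3 higher of 11. The kinesin-1 list had 3 higher of 9, the imprinted gene list 1 higher and 2 lower of 7, the sugar-phosphate list 1 higher of 7 and the IL7 receptor list 2 higher and 1 lower of 6. Proteases and their receptors had 2 higher and 2 lower of 6, troponins and tropomyosins 0 called of 4 and the VSTM family 0 of 1. The largest rises were the secreted protease HTRA1 (1.55 ± 0.22, edgeR adjusted p = 0.00224) and the kinesin-1 adaptor MAPK8IP3 (1.39 ± 0.24, adjusted p = 0.00420). For both, Pal lay within the range of the JQ1 libraries. HTRA1 had 27.7 CPM in Pal, 25.2 in JQ1+Tax and 17.1 in JQ1-B, and MAPK8IP3 had 5.68 in Pal and 5.30 in JQ1+Tax. The largest falls were SOCS3, an inhibitor of cytokine receptor signalling (-1.38 ± 0.37, adjusted p = 0.0205), and LDOC1, like PEG10 derived from a retrotransposon (-1.24 ± 0.13, adjusted p = 0.00104).

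Across the 8 libraries, the tested gene whose log2(CPM + 1) followed a member most closely by Pearson's r was OAZ1 for PEG10 (0.986), ITFG3 for VSTM2L (0.990), USP34 for KIF5C (0.980), PLEC for SLC37A2 (0.990) and WIPF2 for RAPH1 (0.994). For the fallers it was S100A3 for TNNT1 (0.994), MRPL23 for IL7R (0.996), ATG4A for PACSIN3 (0.996), FAM13A for PRSS23 (0.989) and MID1 for CDC42EP1 (0.993). An r of at least 0.9 was reached by 38 genes for PEG10 and 145 to 338 for the other risers, and by 547 to 1120 genes for the fallers. With 2 levels of JQ1 among 8 libraries such values are common, and they describe the order of libraries only.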

How the data were processed

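Of the deposited files, a table gave UMI counts for genes by cells, and a cell file the library, UMIs and detected genes (counts) of each cell. Per the study's methods, the authors pooled equal cell numbers of replicate cultures, made 10x Chromium 3' v2 libraries, aligned reads to hg19 and counted UMIs with Cell Ranger. Seurat, which the submitters' processing notes also name, kept genes seen in at least 3 cells. Their filter (1 to 15% mitochondrial UMIs, at least 2000 genes; 5575 of 5738 cells) was an alternative here.

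UMIs of all cells were summed per library and tested with edgeR 4.0.16 (TMM, quasi-likelihood, 4 residual degrees of freedom, Benjamini-Hochberg over 9288 genes) in R 4.3.3, with DESeq2 1.42.0 as an alternative. On simulated counts over the 9288 genes, 100% of 200 genes given a log2 change of 2 were recovered for JQ1, palbociclib and paclitaxel each. False calls among the unchanged genes numbered 15, 4 and 6 in that order. Smaller changes were not simulated, and the palbociclib and paclitaxel estimates of the 10 genes were all smaller than 2 in size. Phases (lists in Seurat 5.3.0, on thinned cells) and clusters (resolution 0.4, cells passing the filter) were called here; doublets were not called, because a single line was measured. The members and lists were chosen with earlier results of these data known. The text names all 10 genes, their family genes, the 2 largest called rises and falls among related genes, and for each member the gene most alike. Gene positions are GENCODE positions on GRCh37; start sequences were not converted between builds.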

Additional observations from a re-analysis of the deposited data

Results flagged for a closer look

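Among the 4 libraries without JQ1, 1 library stood far from the others for 2 of the 10 genes. VSTM2L was at 60.4 CPM in Pal, where the next highest library had 26.6, and PACSIN3 was at 11.2 CPM in Pal, where the next lowest had 17.2. The measure was Dixon's ratio of the gap to the range (0.837 and 0.845, both past the 95% critical value for 4 libraries), looked at in 20 sets of 4 libraries, of which chance gives about 1 in 20. The 4 libraries differ in treatment and are not replicates, and Pal is the only one of them from the palbociclib experiment, so drug and experiment cannot be told apart for these values.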

How the results depend on the processing

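For palbociclib, 0 of the 10 genes were called; DESeq2's Wald test called 5, and no filter on low counts 3 (205 of all 18955 genes), and leaving out 1 library each gave 0 to 5. For paclitaxel, DESeq2 called 1 gene and leaving out libraries 0. The sign of all 10 palbociclib estimates was kept in every fit, but VSTM2L ranged from 0.28 without Pal to 1.45 without JQ1+Pal. Of the related genes, 27 were called for JQ1, and 14 with the experiment as a term, where the count over all genes fell from 3488 to 2043. Leaving out 1 library each gave 14 to 35, where 1760 to 4190 of all genes were called. The cause of these changes was not tested. SLC37A2 could not be fitted in 2 of 15 alternatives, where it fell under the filter. The JQ1 log2 difference moved beyond the spread between libraries for VSTM2L (2.95 without Pal, 2.92 without JQ1+Pal) and IL7R (-3.46 thinned), and 135 other values did not. Within G1 cells the ratio moved for VSTM2L (1.86) and PACSIN3 (-2.51), and 28 other values within phases did not. Paclitaxel estimates changed sign for KIF5C and CDC42EP1 without Tax (-0.06 and -0.17) and for SLC37A2 without JQ1+Tax (0.81), with no call. Shares of cells with a UMI depend on depth: 36 of 40 moved with all UMIs or 5000 per cell, and 10 of 10 genes had shares apart at both. No paired analysis was possible because the groups share fewer than 2 replicate numbers; the experiment, which ties libraries to each other, was fitted as a term instead. Low counts limit SLC37A2 outside JQ1 and IL7R and CDC42EP1 with JQ1.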
